A study of Mus musculus with 2 samples.

Results

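Genes of the major histocompatibility complex (MHC) and of antigen presentation were examined in irradiated and nonirradiated mouse lung. The rule that picks them reads gene symbols and no measured value, although it was written with earlier results of these data known. It takes 31 symbols that begin with H2-, the prefix of the mouse complex, and found 5 of 9 listed partners, namely Ciita, Tap2, Tapbp, Cd1d1 and Mr1. These 36 genes were found among 19051 genes that carried 1 symbol in the main category of the array. Each rested on a single transcript cluster, a set of probes read together as 1 value. Some clusters span several genes: those of H2-D1 and H2-Bl overlap 11 and 20 RefSeq genes. The other 4 listed partners, B2m, Cd74, Tap1 and Nlrc5, were not found under their own symbols, and neither were several central genes of the complex such as H2-K1, H2-Ab1 and H2-Eb1. Clusters that lie on those genes in RefSeq GRCm38.p6 were looked up after the values had been seen. There were 11 of them, they are called named by position, and they are not counted among the 36.

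The lungs came from male C57BL/6 mice. In 1 group the chest had been exposed at 7 weeks of age to a single dose of gamma rays at 0.81 Gy/min, and the other group was not irradiated. Lungs of both groups carry the label 25 weeks, the stated interval after exposure. Fibrosis of the irradiated lungs had been assessed in the study by histology and western blotting, and their sample is described as from mice that overexpress alpha-smooth muscle actin. Each group was measured on 1 array, and the total dose and the number of mice behind each array are not given in the sources used here. A single array per group allows neither an error nor a test, and with this number of arrays every value is a description of 2 hybridisations.

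MHC class I molecules sit on most cells of the body and show peptides from the cytosol to CD8 T cells. A class I molecule is a heavy chain bound to beta-2 microglobulin (B2m), loaded with peptides that the transporter Tap1-Tap2 brings into the endoplasmic reticulum. Class II molecules are pairs of an alpha and a beta chain that show peptides from endosomes to CD4 T cells. In lung they are carried mainly by dendritic cells, macrophages, B cells and alveolar type 2 cells. Non-classical class I molecules resemble the classical ones but vary less between individuals and have more specialised receptors. Interferon gamma raises both classes, through the transactivators Nlrc5 for class I and Ciita for class II.

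Values are RMA expression values in log2, and every difference below is irradiated minus nonirradiated on that scale. Where a gene is given 2 values, the nonirradiated one comes first. A gene was called bright when the mean of its 2 values reached 7.29, the median of that mean over all 19051 genes, which kept 20 of the 36 genes and 9526 genes in all. The 16 dim genes enter the counts and medians below only where this is stated. Among all bright genes the median difference was -0.05, and 39.4% were higher by any amount in the irradiated array. As a measure of technical spread, clusters that belong to the same bright gene differed from each other with an SD of 0.29 (802 clusters), and 18 bacterial control rows had an SD of 0.14. Of the 20 bright genes of antigen presentation, 15 differed by no more than 0.29. Small differences were general: the 5th to the 95th percentile of all bright genes ran from -0.41 to 0.32.

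Lung identity was plain in both arrays: all 6 defining lung genes, among them Sftpc and Scgb1a1, were bright. In the irradiated array 5 of them were lower and 1 higher, with a median of -0.19 and the largest difference, -0.55, in Foxj1. All 7 bright markers of brown and white fat were higher in the irradiated array (mean values 7.82 and 9.40), as were all 7 of heart muscle (9.41 and 10.40). Of the fat markers, Ucp1, Cidea and Lep were under the brightness limit in the nonirradiated array and counted as bright through the irradiated value. The dim markers of these lists, Adipoq and Casq2, were also higher. Of the thymus and lymph node markers 1 was bright, Cr2, at 8.17 in both arrays. The part of such tissue differences in the results below was not tested. In whole lung, fewer cells of a type and less RNA per cell cannot be told apart.

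Most bright antigen presentation genes differed little between the arrays, as did most bright genes of any kind. The larger differences among the bright antigen presentation genes were those of some non-classical class I genes. Among the genes named by position, Nlrc5 and Tap1 had differences of 0.54 and 0.42. Among the 20 bright genes 13 were higher and 6 were lower in the irradiated array, with a median difference of 0.05. At the limit of 1.5-fold, 1 of the 20 was higher and none lower, against 1.51% of all bright genes higher and 0.882% lower. At a smaller limit, at least 25% higher or 20% lower on the linear scale, 5 were higher and none lower, against 5.04% and 9.96% of all bright genes. None was 2-fold higher, against 0.367%. The absence of lower genes holds for bright genes alone: of all 36 genes, 6 were past the smaller limit upward and 4 downward, against 8.31% and 8.98% of all 19051 genes. The 5 bright genes were H2-Q4, H2-Q5, H2-Q6, H2-Q7 and H2-M2, all non-classical class I genes. Class II genes, the peptide loading partners with a symbol and the class I-like genes outside the complex did not reach the smaller limit in either direction when bright.

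**Figure D1:**
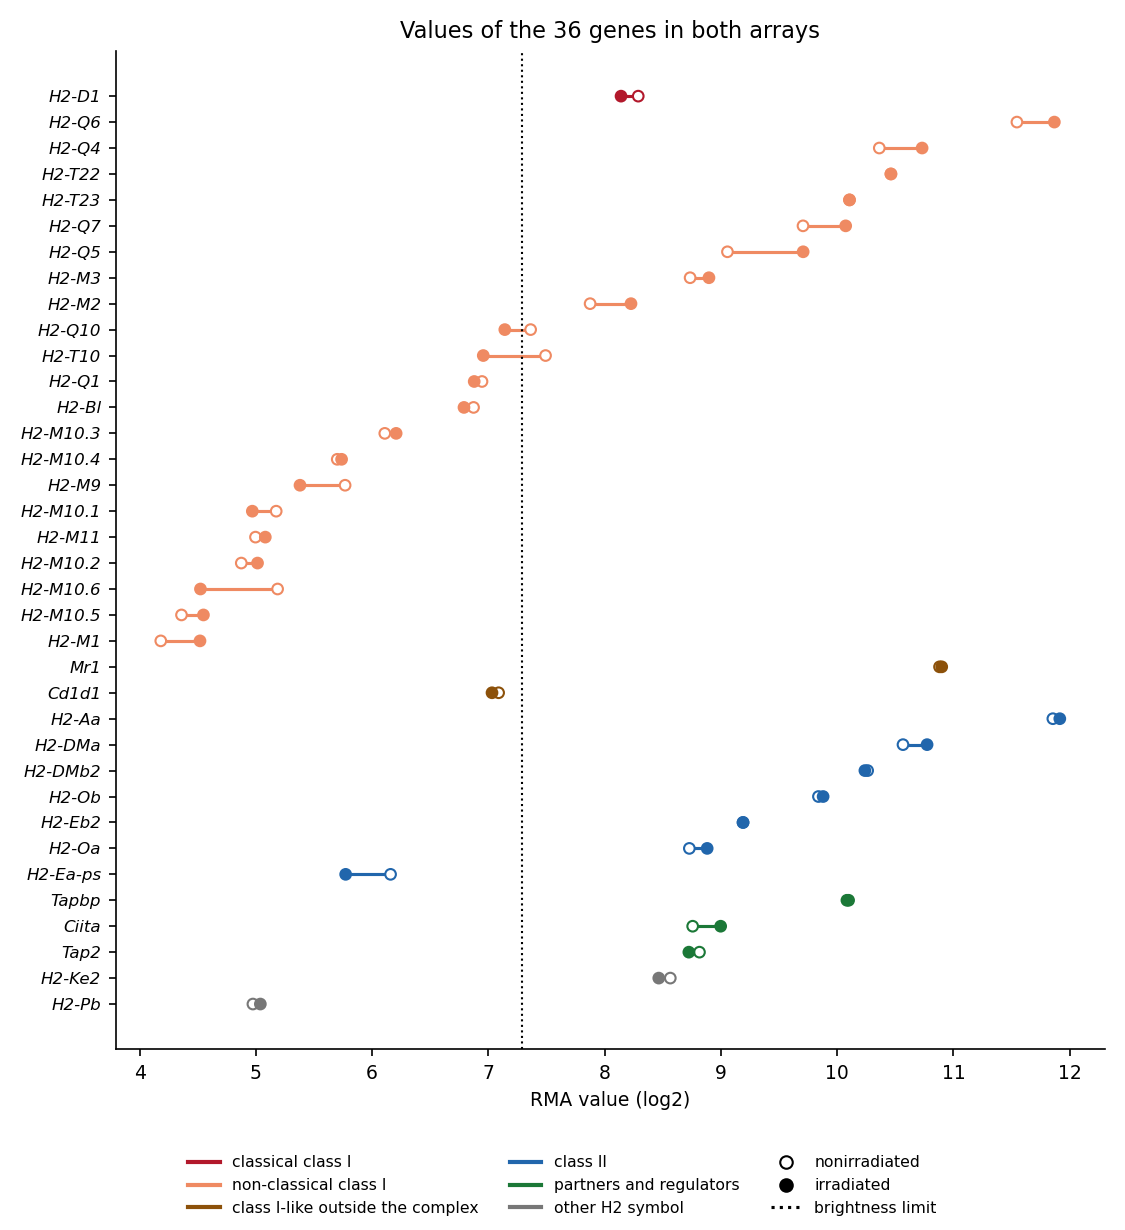
Values of the 36 genes on the log2 RMA scale (x axis) in the nonirradiated array (open circles) and the irradiated array (filled circles), 1 array each, coloured by class. The dotted line is the brightness limit of 7.29, and the longest line among the genes above it belongs to H2-Q5, from 9.06 to 9.71.

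The Q region of the complex, on chromosome 17, holds a row of closely related class I genes. H2-Q4 (35379617 to 35384674, plus strand, GRCm38) read 10.36 without and 10.73 with irradiation, 1.29-fold higher. This gene encodes the Qb-1 antigen, and its cluster was the only one of the 36 annotated as cross-hybridising. H2-Q5 (35394099 to 35395632), which RefSeq lists as a transcribed pseudogene, read 9.06 and 9.71, 1.57-fold higher. It was the 1 bright gene past the 1.5-fold limit, and 1.15% of all bright genes had a difference at least as high. In 3 further rows for H2-Q5, outside the main category, annotated as cross-hybridising and identical to each other, the difference was 0.27 and did not reach that limit. H2-Q6 (35424850 to 35430055) read 11.55 and 11.87, a difference of 0.32 that just passed the smaller limit. H2-Q7 (35439155 to 35443773) read 9.71 and 10.07, 1.29-fold higher. H2-Q6 and H2-Q7 belong to the genes that encode Qa-2, a class I molecule held in the membrane by a lipid anchor, and their clusters have 10 and 9 probes. All 4 bright genes of the Q region were thus higher in the irradiated array, with a median of 0.37. The median of all bright non-classical class I genes was 0.34, and that of all 21 with the dim ones was 0.08. These Q region genes are near copies of each other, so their probes can share signal and the 4 values cannot be taken as independent.

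The flanking genes of the same region were dim and did not share that direction. H2-Q1 read 6.95 and 6.88, a difference of -0.07. H2-Q10, a secreted class I molecule known from mouse liver, read 7.36 and 7.14, a difference of -0.22. Its mean of 7.25 lay just under the brightness limit.

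The upstream sequences of class I genes are shown for a short element that occurs in 4 of the 5 bright genes past the smaller limit, H2-Q5 having no window. It also occurs in genes with a lower value, H2-D1 and H2-Q10. The H2-D1 cluster overlaps other genes, and H2-Q10 was dim. RefSeq promoter windows of GRCm38.p6, from 250 bases before to 50 after the start site, were available for 26 of the 36 genes and for 6 of the 11 named by position. Each stretch ends before the start site of the window used and is written 5′ to 3′ on the strand of the gene. H2-K1 has a second window with another start site. Capitals mark the element TTTCACTTC (TTTCCCTTC in H2-M2), a match to GAANNGAAA read on the other strand and the core of the interferon response element of class I genes, or its longer form in H2-T22 and H2-T23, and each ATTGG or CCAAT, the core bound by NF-Y.
H2-Q4, chr17:35379434-35379572, plus strand: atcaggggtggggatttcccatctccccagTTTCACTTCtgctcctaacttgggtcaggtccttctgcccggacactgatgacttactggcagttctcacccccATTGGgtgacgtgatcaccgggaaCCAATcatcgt
H2-Q6, chr17:35424668-35424806, plus strand: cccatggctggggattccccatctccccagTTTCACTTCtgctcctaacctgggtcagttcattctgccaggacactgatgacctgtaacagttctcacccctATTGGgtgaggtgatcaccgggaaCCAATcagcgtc
H2-Q7, chr17:35439012-35439150, plus strand: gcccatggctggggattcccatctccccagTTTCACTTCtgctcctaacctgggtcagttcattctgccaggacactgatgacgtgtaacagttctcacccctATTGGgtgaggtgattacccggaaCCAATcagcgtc
H2-Q10, chr17:35469904-35470042, plus strand: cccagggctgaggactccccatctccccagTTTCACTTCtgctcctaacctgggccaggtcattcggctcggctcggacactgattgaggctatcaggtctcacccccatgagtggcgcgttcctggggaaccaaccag
H2-D1, chr17:35262914-35263052, plus strand: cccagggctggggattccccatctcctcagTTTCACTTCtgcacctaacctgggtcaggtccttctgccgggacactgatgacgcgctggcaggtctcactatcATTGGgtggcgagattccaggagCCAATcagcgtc
H2-K1, chr17:34000334-34000467, minus strand: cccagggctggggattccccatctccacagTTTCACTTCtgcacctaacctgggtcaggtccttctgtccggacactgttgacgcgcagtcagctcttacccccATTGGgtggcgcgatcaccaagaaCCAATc
H2-M2, chr17:37483588-37483726, minus strand: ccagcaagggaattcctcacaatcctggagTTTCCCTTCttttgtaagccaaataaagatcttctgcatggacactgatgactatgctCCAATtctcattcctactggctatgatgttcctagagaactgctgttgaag
H2-M3, chr17:37270103-37270233, plus strand: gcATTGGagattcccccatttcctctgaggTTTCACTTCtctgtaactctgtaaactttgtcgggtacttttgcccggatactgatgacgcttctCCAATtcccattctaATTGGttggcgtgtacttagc
H2-T22, chr17:36042824-36042963, minus strand: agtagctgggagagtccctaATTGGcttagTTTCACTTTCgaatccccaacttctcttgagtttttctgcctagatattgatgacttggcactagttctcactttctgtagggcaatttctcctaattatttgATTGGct
H2-T23, chr17:36032716-36032855, minus strand: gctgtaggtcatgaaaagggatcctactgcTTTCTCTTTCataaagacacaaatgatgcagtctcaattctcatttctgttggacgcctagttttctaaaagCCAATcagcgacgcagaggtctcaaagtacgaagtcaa

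A match to GAANNGAAA on either strand was present in 7.52% of all 32851 promoter windows. Among the 26 genes with a window it was present in 7, all of class I: H2-D1, H2-Q4, H2-Q6, H2-Q7, H2-Q10, H2-M2 and H2-M3. Of these 7 genes, 5 were higher and 2 lower in the irradiated array, with a median difference of 0.32 and a range from -0.22 to 0.37. The 19 genes without it had a median of 0.04 and a range from -0.66 to 0.34. Both sets include dim genes. Among bright genes alone, the 6 with it had a median of 0.34 and a range from -0.15 to 0.37. The 10 bright genes without it had a median of 0.01 and a range from -0.02 to 0.21. The -0.15 is the value of the H2-D1 cluster, which overlaps other genes. All 6 bright genes with the element are of class I, among them the near copies H2-Q4, H2-Q6 and H2-Q7. The 10 without it include all 6 bright class II genes, so this contrast overlaps with that between classes. This element was added to the search after the tables had been seen, so these medians are a description. The longer form, GAAA followed after any 2 bases by GAAA, in 3.44% of all windows, was found in H2-T22 and H2-T23 and in none of the other 24 genes with a window. These 2 bright genes had a median of -0.0003, against 0.11 for the 14 bright genes without the longer form. Of the genes named by position with a window, B2m held it, and the cluster on B2m differed by 0.15. The Y box core ATTGG was found in 24 of the 26 genes and in 37.4% of all windows. H2-Q10 was the only gene of the complex with a window that held no exact ATTGG on either strand. The GAS motif TTCNNNGAA, bound by STAT factors, was found in 3 of the 26 genes, H2-DMb2, H2-M11 and H2-M3, and in 8.30% of all windows. A match says only that these letters are in the window.

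**Figure D2:**
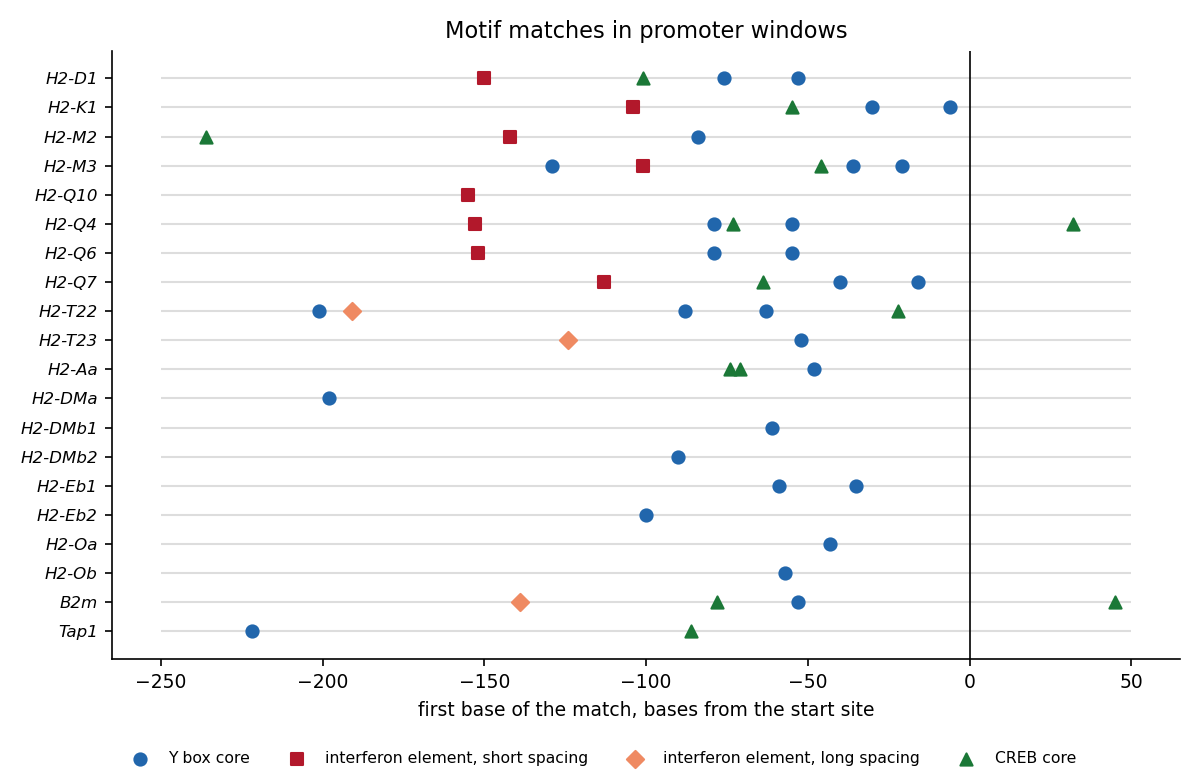
Position of motif matches in promoter windows of class I genes, class II genes and the partners B2m and Tap1, in bases from the start site (x axis), 1 window per gene. In the windows shown, the short-spaced interferon element (squares) lies 101 to 155 bases before the start site in all 8 genes that hold it. These include H2-K1, whose second window, not shown, has it 90 bases before the start site. No class II gene shown has the element.

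Alike promoter windows occurred between genes of the same sign and between genes of opposite sign, and a link with direction was not tested. The sign given for H2-D1 is that of a cluster that overlaps 11 RefSeq genes, and H2-Q10 was dim. Their differences, -0.15 and -0.22, lay within the spread of 0.29, so these 2 signs are weak. In pairwise global alignment H2-D1 and H2-Q10, both with lower values in the irradiated array, shared 82.6% of aligned positions, and H2-Q4 and H2-Q6, both higher, shared 78.4%. H2-D1 and H2-Q6, with opposite signs, shared 79.7%, H2-Q10 and H2-Q6 77.2%, and H2-D1 and H2-Q4 75.4%. Some windows of the T and M regions were less alike: H2-T22 and H2-T23 shared 47.8%, and H2-M3 and H2-Q10 47.4%, below the median of 52.5% over all 171 pairs of class I windows.

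Classical class I genes were represented by H2-D1 alone among the 36. H2-D1, a heavy chain that presents peptides to CD8 T cells, read 8.29 and 8.14, a difference of -0.15. Its cluster runs from 35262730 to 35398839 on chromosome 17, 136 kb that overlap 11 RefSeq genes, among them H2-Q4 and H2-Q5, so the value cannot be read as H2-D1 alone. The cluster named by position as H2-K1, the other classical heavy chain of this strain, read 12.21 and 12.42, a difference of 0.21. The cluster on H2-K2, a transcribed pseudogene next to it, read 8.70 and 9.02, a difference of 0.31. The classical class therefore has a lower value under its 1 symbol and higher values at both positions, none past the smaller limit.

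The T region encodes non-classical molecules with known partner receptors. H2-T23, which encodes Qa-1, a ligand of inhibitory receptors on NK cells, read 10.11 in both arrays and differed by less than 0.01. H2-T22, a ligand of some gamma-delta T cell receptors, read 10.46 in both arrays, with a deposited difference of exactly 0. H2-T10, listed by RefSeq as a transcribed pseudogene and closely related to H2-T22, read 7.49 and 6.96, 1.45-fold lower, with a mean of 7.22 that is dim. H2-Bl read 6.87 and 6.79 on a cluster of 176 kb that overlaps 20 RefSeq genes. The cluster on H2-T24, named by position, read 8.56 and 8.79, a difference of 0.22. None of the 4 T region genes with a symbol was higher in the irradiated array, and H2-T10 and H2-Bl were dim. The 2 bright T region genes had a median of -0.0003, against 0.37 for the 4 bright genes of the Q region. With dim genes included, 4 genes of the Q region were higher and 2 lower.

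The M region, at the far end of the complex, had 2 bright genes. H2-M3, which presents N-formylated bacterial peptides, read 8.73 and 8.90, a difference of 0.16. H2-M2 (37480851 to 37483552, minus strand) read 7.87 and 8.23, 1.28-fold higher. The other 9 genes, H2-M1, H2-M9, H2-M11 and 6 genes of the H2-M10 family, were dim, and the H2-M10 family is known from the vomeronasal organ rather than from lung. Their differences ran from -0.66 to 0.34. H2-M10.6, at 5.19 and 4.52, was 1.58-fold lower, and H2-M1, at 4.18 and 4.52, was 1.26-fold higher. These readings lie near those of the antigenomic background rows, whose medians were 4.77 and 4.59. Without the brightness limit, 1 of the 36 genes was at least 1.5-fold higher and 1 lower, against 2.07% and 1.2% of all 19051 genes.

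**Figure D3:**
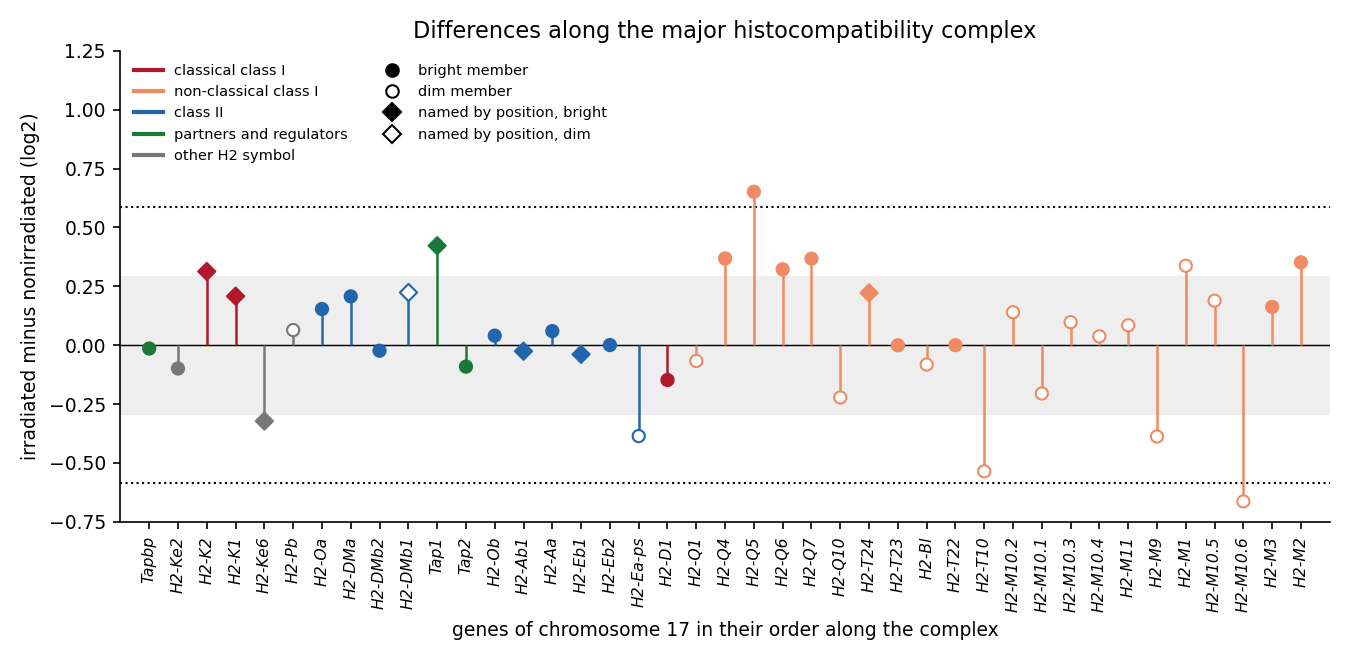
Difference, irradiated minus nonirradiated (log2, y axis), of the genes of the complex in their order along chromosome 17, with filled symbols for bright and open symbols for dim genes, and diamonds for genes named by position. The grey band is 1 SD (0.29) of the differences of clusters around their gene mean, the dotted lines are 1.5-fold, and H2-Q4 to H2-Q7 stand above the band side by side.

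Other genes of the same stretch of chromosome 17 were more often lower than higher, as were bright genes in general. Between the outermost H2- genes lay 77 other bright genes with a symbol. Of these 27 were higher and 50 lower in the irradiated array, with a median of -0.15. Among all bright genes 39.4% were higher, with a median of -0.05, so the split of this stretch was near the general one. The 18 bright genes of antigen presentation on chromosome 17 had a median of 0.05, with 11 higher and 6 lower.

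Outside the complex, the class I-like genes were nearly equal between the arrays. Mr1 on chromosome 1, which presents vitamin B metabolites to mucosal-associated invariant T cells, read 10.88 and 10.90. Cd1d1 on chromosome 3, which presents lipids to NKT cells, was dim and read 7.09 and 7.03.

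Class II genes were close to equal in both arrays. Of 6 bright genes 5 were higher and 1 lower, the median difference was 0.05 and the range was -0.02 to 0.21. H2-Aa (34269331 to 34287827, minus strand), the alpha chain of I-A, the class II molecule of C57BL/6 mice, read 11.85 and 11.91. The cluster on H2-Ab1, the beta chain that pairs with it, was named by position and read 12.53 and 12.50. Both chains of I-A thus differed by less than 0.1. H2-Eb2, a further beta chain, read 9.19 in both arrays, and the cluster on H2-Eb1 read 11.74 and 11.70. H2-Ea-ps, the E alpha gene that is defective in this strain, was dim and read 6.16 and 5.77, 1.31-fold lower.

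Genes of peptide editing were also close to equal, and H2-DMa and H2-Oa had the larger differences among the bright class II genes. H2-DMa, the alpha chain of the DM molecule that exchanges peptides on class II, read 10.57 and 10.77, a difference of 0.21. H2-DMb2, one of its beta chains, read 10.26 and 10.24, and the cluster on the other, H2-DMb1, was dim at 6.99 and 7.22. H2-Oa and H2-Ob encode the chains of the DO molecule, which restrains DM. H2-Oa read 8.73 and 8.88, a difference of 0.15, and H2-Ob read 9.84 and 9.88, a difference of 0.04. All of these lie within the spread of 0.29 between clusters of 1 gene.

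The class II windows below are shown for the shared Y box, again as ATTGG or CCAAT in capitals.
H2-Aa, chr17:34287837-34287931, minus strand: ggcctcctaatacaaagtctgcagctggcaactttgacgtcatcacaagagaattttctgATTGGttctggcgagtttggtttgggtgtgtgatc
H2-Eb1, chr17:34305748-34305842, plus strand: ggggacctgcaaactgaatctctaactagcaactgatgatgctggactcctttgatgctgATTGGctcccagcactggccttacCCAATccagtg
H2-Eb2, chr17:34325515-34325609, plus strand: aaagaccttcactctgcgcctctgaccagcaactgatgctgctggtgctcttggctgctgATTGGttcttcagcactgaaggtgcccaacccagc
H2-Oa, chr17:34092276-34092370, plus strand: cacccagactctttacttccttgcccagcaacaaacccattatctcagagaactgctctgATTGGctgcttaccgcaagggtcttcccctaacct
H2-Ob, chr17:34238788-34238882, plus strand: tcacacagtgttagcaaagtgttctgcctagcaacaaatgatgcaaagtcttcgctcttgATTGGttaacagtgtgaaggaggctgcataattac

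In these 5 genes the first ATTGG of the printed stretch starts 43 to 100 bases before the start site. ATTGG was found in all 8 class II genes with a window, those named by position included. The X1 box consensus, bound by RFX, was matched exactly in H2-DMb1 alone and in 0.0609% of all windows. No class II window held GAANNGAAA. TGACG, a core motif for CREB in the neighbouring X2 box, was found in 1 of the 8 class II genes, H2-Aa, and in 20.8% of all windows. The other genes of the 26 that held it, 10 in number, were of class I.

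Among partners and regulators, the larger differences were those of the clusters on Nlrc5 and Tap1, followed by Ciita. Ciita (chromosome 16, 10480072 to 10527564, plus strand), the transactivator of class II genes, read 8.757 and 8.998, a difference of 0.24. The cluster on Nlrc5 (chromosome 8, 94472763 to 94527272, plus strand), the transactivator of class I genes, read 7.54 and 8.08, 1.45-fold higher, and covers 58.7% of the RefSeq gene. The cluster on Tap1 (chromosome 17, 34187553 to 34197225) read 9.76 and 10.19, 1.34-fold higher. Tap2, the other subunit of the same transporter, read 8.82 and 8.72, a difference of -0.09, so the subunits had differences of opposite sign. Tapbp, the tapasin that tethers class I molecules to the transporter, read 10.10 and 10.08. The cluster on B2m (chromosome 2) read 13.38 and 13.53, a difference of 0.15. The cluster on Cd74 (chromosome 18), the invariant chain of class II, read 12.81 and 12.87. The 3 partners with a symbol had a median of -0.01, and with the 4 named by position the median was 0.15.

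H2-Ke2 and H2-Pb carry the H2- prefix without being presenting molecules. H2-Ke2, which RefSeq names Pfdn6, a prefoldin subunit, read 8.56 and 8.47. H2-Pb, a class II-like pseudogene, was dim at 4.97 and 5.04. The cluster on H2-Ke6, named by position, read 10.06 and 9.74, a difference of -0.32.

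Further genes of class I assembly and peptide supply were not higher as a group. Of 15 bright genes 6 were higher and 9 lower, with a median of -0.07, and none reached 1.5-fold. The immunoproteasome subunits, which replace constitutive subunits after interferon gamma, did not share a direction, as Psmb9 differed by 0.18, Psmb8 by -0.07 and Psmb10 by -0.10. The proteasome activator subunits Psme1 and Psme2 differed by -0.29 and -0.17. Thop1, a peptidase of the cytosol, read 7.59 and 7.19, 1.32-fold lower. The chaperones Calr and Canx, which hold heavy chains during folding, differed by 0.09 and 0.10.

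Genes of class II loading and regulation were likewise split. Of 13 bright genes 5 were higher and 8 lower, with a median of -0.01. The factors that bind class II promoters ranged from -0.02 for Rfx5 to 0.23 for Nfya, a subunit of NF-Y. Of the endosomal proteins, Ctsd, the cathepsin D protease, differed by -0.34. Ifi30, a thiol reductase that unfolds antigens, differed by -0.28 and Ctss, the protease that trims the invariant chain, by -0.25. Ctsl, a related protease, differed by 0.04.

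Genes of interferon gamma signalling were higher in 11 of 12 bright cases, with a median of 0.13, and 1 was at least 1.5-fold higher. That gene was Cxcl9, a chemokine induced by interferon gamma, at 7.80 and 8.97. Gbp2, an inducible GTPase, read 10.11 and 10.59, 1.40-fold higher, Irf9 differed by 0.34 and Ptpn2, a phosphatase of this pathway, by 0.23. Irf1, a factor that binds interferon response elements, differed by 0.13, the receptor chains Ifngr1 and Ifngr2 by 0.08 and -0.11. Ifng itself was dim at 6.81 and 6.74. Of the costimulation genes 2 were bright: Icos of T cells at 7.45 and 8.05 and its ligand Icosl at 8.97 and 9.16.

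Markers of cells that carry these molecules did not move in 1 direction. The 8 bright B cell markers had mean values of 9.59 and 9.70, with 6 higher, 2 lower and a median of 0.09. Cd79a, a chain of the B cell receptor, differed by 0.29. The 11 bright markers of T and NK cells had mean values of 8.38 and 8.57, with 9 higher and a median of 0.17. Prf1, the pore protein of cytotoxic cells, differed by 0.47 and Ncr1, an NK cell receptor, by 0.46, while Cd3d, a chain of the T cell receptor complex, differed by -0.31.

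Markers of other class II-bearing cells were mixed or lower. The 5 bright dendritic cell markers had mean values of 8.74 and 8.89 and a median of 0.05, with Cd209a 1.64-fold higher and Itgax at -0.20. Macrophage markers were lower in 9 of 10 cases, with mean values of 9.21 and 8.99 and a median of -0.25, among them Chi3l3 at -0.55 and Siglec1 at -0.42. All 8 bright markers of alveolar type 2 cells were lower, with mean values of 12.66 and 12.46 and a median of -0.18. The 7 bright markers of vascular endothelium, cells rich in class I, had a median of -0.02 and ran from -0.15 to 0.21. The part of any of these cell types in the values of class I and class II genes was not tested.

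**Figure D4:**
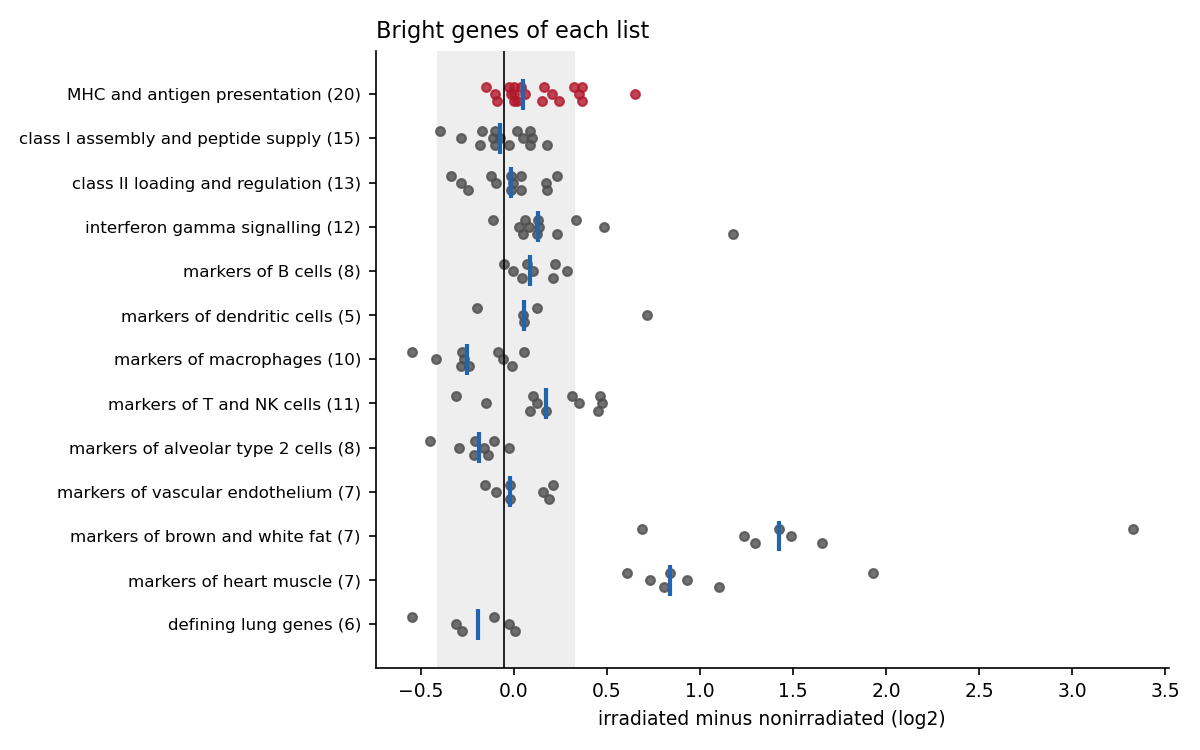
Difference, irradiated minus nonirradiated (log2, x axis), of each bright gene (points) and the median (blue bars) for the 20 bright genes of antigen presentation (red) and for lists with at least 5 bright genes (grey, number in parentheses). The black line is the median of all bright genes, -0.05. The grey band runs from the 5th to the 95th percentile of all bright genes, -0.41 to 0.32, and the class II loading list, with a median of -0.01, lies inside it.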

How the data were processed

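Total RNA from whole lung (300 ng) was labelled with biotin and hybridised to Affymetrix whole-transcript arrays, per the labels' protocols, 1 array per group. The authors deposited log2 values, and the submitters' processing notes name RMA and Affymetrix Expression Console, version 1.3.1. RMA usually includes quantile normalisation, which removes a change common to most genes. The authors' deposited table also holds a log2 ratio and a fold, a ratio of at least 1, which were not needed here. The array type and detection calls are not given in the sources used here.

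Of 41345 rows, the 33793 of the main category were used, of which 20050 carry 1 symbol, 80 several and 13663 none. Rows of a symbol were averaged, giving 19051 genes. Clusters were named by position when they carried no symbol or a LOC symbol, lay within 500 bases of a RefSeq gene's ends and covered at least 50% of it. Every one of the 36 genes could be named; of other lists, up to 4 bright genes with the largest absolute difference, and the further list genes in the text were chosen after their values were seen. Of 156 entries in 14 lists, 130 matched. The genes and lists were chosen with earlier results of these data known. Motifs were searched as exact letters on both strands, and windows were aligned with Biopython 1.88. The script was tested on simulated data. Alternatives were median centring, a lowess trend (span 0.3, statsmodels 0.14.6), leaving out cross-hybridising clusters or those under 10 probes, the cluster with the most probes, the series value table, and other brightness and fold limits. No p-value was computed. Protein identity between genes was planned and not analysed here.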

Additional observations from a re-analysis of the deposited data

How the results depend on the processing

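No paired analysis was possible because each group has 1 array. Centring and trend removal moved the differences of the 36 genes by less than the spread between clusters of 1 gene. Other settings are no check of single values: each gene has 1 cluster and the series value table holds the same numbers, so the probe minimum only removed H2-Q7, H2-T22, H2-T10 and H2-M10.1, and the limit on cross-hybridisation only H2-Q4. Centring turned the sign of H2-T23 and Tapbp, and trend removal that of these and H2-DMb2, all with differences under 0.05. Of the 20 bright genes, 5 were at least 25% higher and 0 at least 2-fold higher. Without the brightness limit 1 gene, H2-M10.6, was at least 1.5-fold lower. With genes named by position added, the median of classical class I moved from -0.15 to 0.21. The median of partners, -0.01, was 0.01 after centring, 0.03 after trend removal, 0.11 with the brightness limit at the 75th percentile and 0.15 with genes named by position. With dim genes included, the median of non-classical class I was 0.08 instead of 0.34. Leaving out H2-D1 and H2-Bl, an alternative chosen after seeing the data like the one by position, only removes the classical class. Dim genes, many with values near the antigenomic background rows, have the least signal over background.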

Other observations

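Outside the main category, the table holds rows for H2- symbols in a category named rescue. H2-Q9, a further Qa-2 gene, read 10.88 without and 11.16 with irradiation, a difference of 0.28, on a row annotated as cross-hybridising. H2-Q5 had 3 rows, also annotated as cross-hybridising, with identical values of 7.43 and 7.70, a difference of 0.27, below the 0.65 of its main cluster. H2-T18 read 7.42 and 7.53.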
